A study of Mus musculus with 32 samples.

Results

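Ribosome footprints of mouse neural stem cells (NSCs) were compared after 2 h of interferon-β (IFN-β) and after vehicle. The comparison used every sample labelled as a 2 h footprint library, 8 of the 32 samples in the series, with 4 vehicle and 4 IFN-β cultures. All cells came from the ventricular-subventricular zone (vSVZ) of wild type C57BL/6 mice 8 to 12 weeks old, were expanded with EGF and FGF, and received either recombinant mouse IFN-β or the same volume of its albumin-containing diluent, so that the growth factors were common to both groups. Before lysis all cultures were treated with cycloheximide, which stalls ribosomes on the mRNA. A footprint is the short stretch of mRNA that a ribosome shields from nuclease, so the number of footprints in a coding sequence (CDS) follows both the amount of an mRNA and how densely it is translated, and these cannot be told apart in the values given here. In the same way, fewer cells of one type and less of an mRNA per cell cannot be told apart in a bulk culture.

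Type I IFNs bind the receptor chains IFNAR1 and IFNAR2, which carry the kinases TYK2 and JAK1. The kinases phosphorylate STAT2, which acts with IRF9 at interferon-stimulated response elements (ISREs) in the promoters of interferon-stimulated genes (ISGs). NSCs of the vSVZ give rise to progenitors and neuroblasts, and Notch signalling, EGF receptor signalling and transcription factors such as OLIG2 control their activation and their fate.

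The vehicle libraries held 7110178 to 9361609 CDS counts and the IFN-β libraries 4956144 to 8170824. Cultures with the same number varied together, with correlations of 0.328 to 0.812 between their deviations from the group means, and each number was therefore fitted as a culture pair (pairs 2, 3, 5 and 6). Pair 3 stood apart from the others: its deviations correlated at -0.307 to -0.629 with those of differently numbered cultures. Among cultures 2, 5 and 6, those with different numbers correlated at 0.126 to 0.324, close to the 0.328 of pair 5. All 11 NSC markers passed the filter on low counts, with summed levels of 14780.2 to 17504 CPM (counts scaled to a common library size) in vehicle and 14261 to 17706 CPM with IFN-β. The microglial markers Cx3cr1, Tmem119, Aif1, Ptprc and C1qa were at 0 in every library, and 3 of 12 microglial, 2 of 10 endothelial, 2 of 10 pericyte and fibroblast, 4 of 8 ependymal, 8 of 12 neuronal and 3 of 9 mature oligodendrocyte markers passed the filter.

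Footprints of interferon-stimulated genes rose steeply within 2 h. Among well-covered genes (50 counts or more on average over the 8 libraries) the rise reached 156-fold for Tgtp1. This gene had 6 counts in all vehicle libraries together and 810 with IFN-β, so the size of its rise is uncertain. The falls were shallower and included genes of progenitor identity and of Notch and growth factor signalling. Of 23035 genes in the table, 12104 passed the filter of at least 10 counts in at least 4 libraries, and 3538 of these (29.2%) were called at an adjusted p under 0.05 (edgeR's quasi-likelihood test with the culture pair as a block and Benjamini-Hochberg adjustment). The footprints of 1920 genes (15.9%) rose and those of 1618 genes (13.4%) fell. The median log2 fold change was 0.41 among the rises and -0.37 among the falls, against -0.01 over all genes tested. A log2 fold change of at least 1 was reached by 402 rises, and one of -1 or below by 115 falls. Scaling by total counts alone turned the split around, with 1624 rises and 2272 falls (41.7% rises against 54.3%), so the balance between small rises and small falls depended on the scaling. Without the culture pair in the model 878 genes were called, 635 of them higher (5.25% of all genes) and 243 lower (2.01%). All 4 pairs moved the same way in 1828 of the rises and 1521 of the falls, against 43.3% of all genes tested.

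The 402 genes that rose by at least 1 on the log2 scale held 0.623%, 0.794%, 0.687% and 0.605% of the footprints in vehicle cultures 2, 3, 5 and 6. With IFN-β they held 2.87%, 4.34%, 3.26% and 2.76% in the same order. The lowest IFN-β library was above the highest vehicle library, as the choice of these genes requires, and culture 3 had the largest share in both groups. Over all genes tested, the 4 IFN-β and the 4 vehicle libraries did not overlap in 1563 (12.9%).

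**Figure D1:**
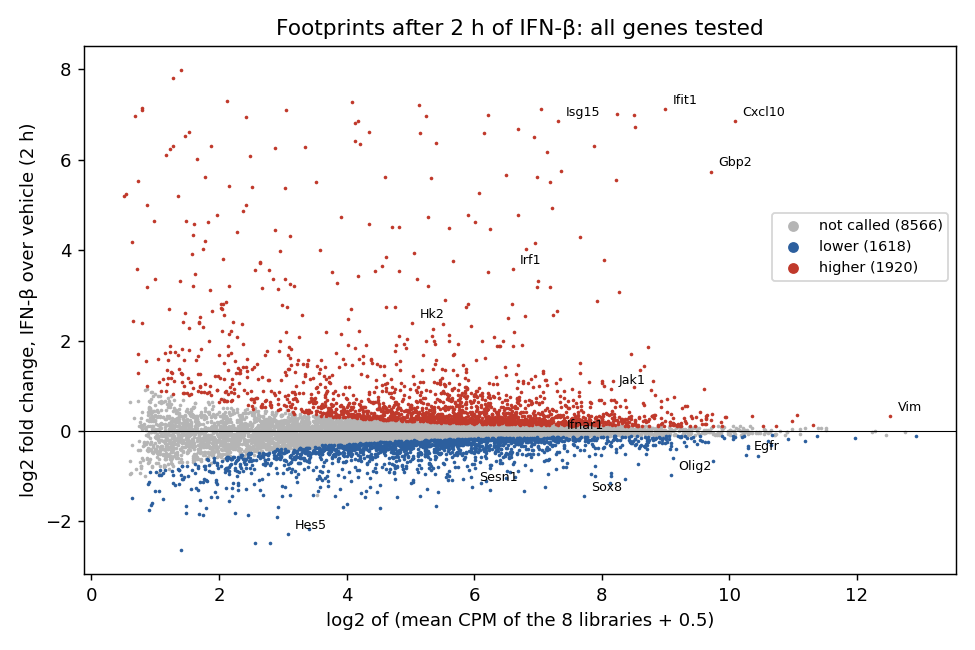
Log2 fold change of footprints (IFN-β over vehicle, 2 h, y axis) against the log2 mean level of the 8 libraries (CPM + 0.5, x axis), 1 point per gene tested. The 1920 genes called higher are red and reach far above 2, whereas the 1618 genes called lower are blue and stay mostly above -2.

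Of the receptor and its kinases, only some were higher. Ifnar1 had 159, 168, 178 and 155 CPM in vehicle cultures 2, 3, 5 and 6, and 147, 161, 168 and 148 CPM with IFN-β. Its log2 fold change was -0.08 ± 0.05 (SE), with an adjusted p of 0.22 by edgeR. Ifnar2 rose slightly (log2 0.29 ± 0.11, edgeR adjusted p = 0.038), a call lost without the culture pair (adjusted p = 0.252), and Tyk2 was not called (-0.08 ± 0.12). Jak1, the kinase bound to IFNAR2, rose from 191, 214, 204 and 172 CPM to 357, 410.4, 373 and 344 CPM. The groups did not overlap, and the fold change was 1.9 (log2 0.93 ± 0.04, edgeR adjusted p = 1.62e-15).

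Stat2 and Irf9, whose proteins act together at ISREs, rose much more. Stat2 had 11.2, 15.6, 13.5 and 11.4 CPM in vehicle and 193, 269, 206 and 175 CPM with IFN-β, which gave a log2 change of 4.02 ± 0.07 (edgeR adjusted p = 6.32e-26). Irf9 had 3.35, 6.4, 3.68 and 2.99 CPM in vehicle and 82.2, 106, 97 and 82.3 CPM with IFN-β (log2 4.5 ± 0.1, edgeR adjusted p = 7.59e-23). In both genes every IFN-β library was above every vehicle library. Of the 15 genes listed for the receptors, JAKs, STATs and IRF9, 13 passed the filter, 8 rose and none fell, with a median log2 fold change of 0.37.

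The filter on low counts could be met by the 4 IFN-β libraries alone, and a gene that entered in this way had to be higher. The counts for the ISG families below are therefore given for members with at least 10 counts in each of the 4 vehicle libraries, called measured in vehicle. For strong ISGs this limit may not be a guard. Ifit3, for example, had 37 to 47 counts per vehicle library at 2 h but 1 to 3 at 14 h. Whether the 2 h vehicle counts of such genes came from the vehicle cultures was not tested. Of 13 IFN regulatory factors and partners, 6 were measured in vehicle, of which 2 rose and 1 fell, with a median log2 fold change of 0.05. The fall (Irf2bp2, -0.16) was lost with DESeq2, without the culture pair in the model and without pair 2, 5 or 6. A further 4, among them Irf7 and Irf8, entered through the IFN-β libraries. Irf1, an activator of ISGs, was even between cultures: its vehicle levels were 15.3, 14.8, 14.9 and 14.7 CPM and its IFN-β levels 171, 169, 186 and 191 CPM (log2 3.58 ± 0.07, edgeR adjusted p = 8.91e-25). Irf7, the factor that amplifies type I IFN production, rose from 0.404 ± 0.158 to 35.6 ± 14.1 CPM (SD, n = 4 cultures each; log2 6.35 ± 0.19). Irf8 rose by 2.42 ± 0.24, whereas Irf3, the constitutive factor that starts IFN production, had a log2 fold change of -0.01 and was not called.

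Inhibitors of the pathway were among the early rises. Usp18, which blocks IFNAR2 signalling and removes ISG15 from proteins, had 1.26, 2.09, 2.63 and 1.9 CPM in vehicle and 166, 287, 219.6 and 138 CPM with IFN-β (log2 6.68 ± 0.1, edgeR adjusted p = 9.84e-27). Socs1, an inhibitor of JAK kinases, rose from 0.355 ± 0.349 to 15.1 ± 5.2 CPM (SD, n = 4 cultures each; log2 5.37 ± 0.27), with a count of 0 in vehicle culture 5. Of 17 feedback inhibitors listed, 14 were measured in vehicle, of which 8 rose and 1 (Pias3, -0.42) fell. Cish rose by 1.76 ± 0.18, and the other members of the SOCS family that rose were Socs2 (2.43), Socs3 (1.62), Socs5 (0.53), Socs7 (0.35) and Socs4 (0.25).

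The largest rises were those of antiviral effectors. Ifit1, which binds foreign RNA ends, had 7.23, 9.05, 5 and 6.39 CPM in vehicle and 703, 1813, 949 and 582 CPM with IFN-β (log2 7.12 ± 0.1, edgeR adjusted p = 1.19e-27). Isg15, a ubiquitin-like modifier, had 2.72, 3.2, 2.24 and 2.58 CPM in vehicle and 318, 404, 307 and 229.9 CPM with IFN-β (log2 6.86 ± 0.09). In both genes the highest level was in IFN-β culture 3, and no libraries of the 2 groups overlapped. The 12 rises with the largest fold change under the naming rule were Tgtp1 (7.28 ± 0.22), Ifi47 (7.22 ± 0.16), Iigp1 (7.12 ± 0.12), Ifit1, Ifit1bl1, Ifit3b (7.01 ± 0.09), Oasl2 (7 ± 0.12), Ifit3 (6.99 ± 0.09), Gm4951 (6.96 ± 0.15), Isg15, Cxcl10 and Tgtp2 (6.85 ± 0.21). For Ifit1bl1, with 3 counts in all vehicle libraries together against 398 with IFN-β, the ratio was 160-fold, with an exact 95% counting interval of 54.4 to 779. Ifit3 and Ifit3b, Tgtp1 and Tgtp2, and the other members of these families are close in sequence, and how reads were divided between them is uncertain.

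In vehicle, the mean level of these 12 genes was 0.591% (Tgtp1) to 0.877% (Isg15) of the IFN-β mean, a range that follows from their choice by fold change. Their IFN-β counts ran from 398 (Ifit1bl1) to 54687 (Cxcl10). By culture pair, the summed level of the 12 genes in vehicle was 0.933%, 0.568%, 0.764% and 1.1% of that with IFN-β in pairs 2, 3, 5 and 6. After 14 h the same percentage was 0.0116% (Ifit1) to 0.382% (Ifit1bl1). Whether the 2 h vehicle counts of these genes came from the vehicle cultures was not tested. Their fold changes differ little beyond their standard errors, so their order carries little information.

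**Figure D2:**
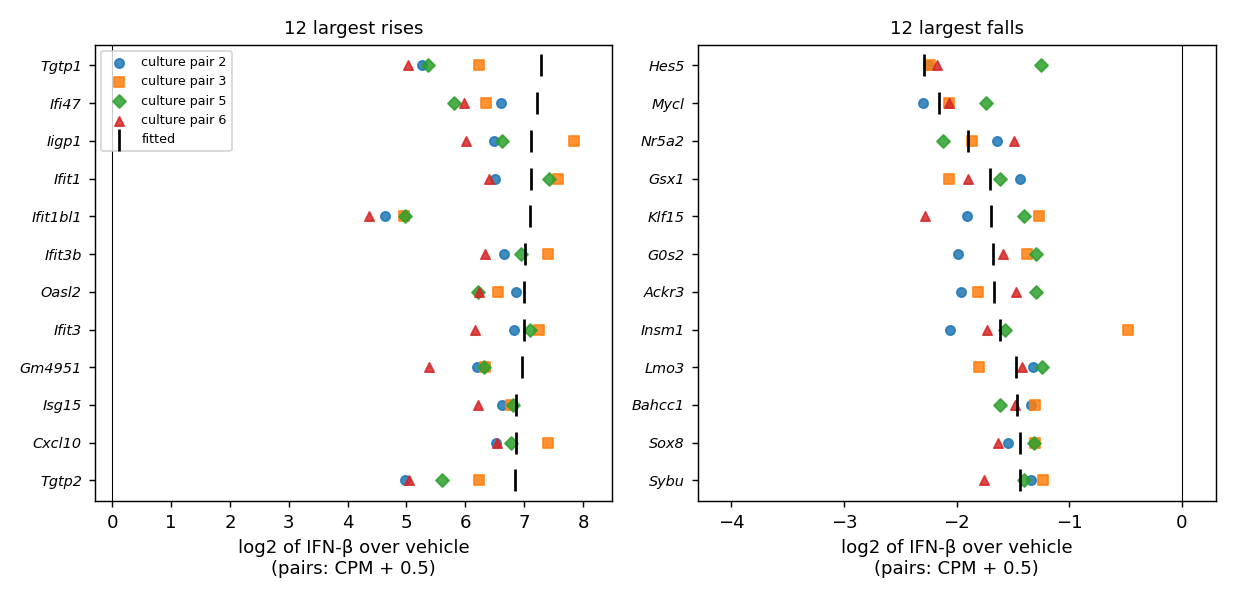
Log2 ratio of IFN-β over vehicle (x axis) in each culture pair (symbols, from CPM + 0.5) and as fitted (vertical ticks) for the 12 largest rises (left) and the 12 largest falls (right). Added to low levels, 0.5 CPM pulls the pair ratios towards 0. In all 24 genes the 4 pairs moved the same way, as the choice of these genes requires.

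By family, 9 of 20 listed guanylate-binding, immunity-related and Mx GTPases were measured in vehicle, and these 9 rose, with a median log2 fold change of 5.56. A further 7, among them Tgtp1 and Tgtp2, entered through the IFN-β libraries. Gbp2, a GTPase that attacks the membranes around intracellular microbes, had 24.8, 39, 30.4 and 26.1 CPM in vehicle and 1200.3, 2438, 1635 and 1286 CPM with IFN-β (log2 5.74 ± 0.06, edgeR adjusted p = 2.85e-30). Of 21 IFIT, OAS and related RNA effectors 9 were measured in vehicle and 8 of these rose (median 2.57). The 7 of 22 listed TRIM and Schlafen genes that were measured in vehicle rose (median 2.75). So did the 8 genes of a list of chosen PARP family members and their partner Dtx3l (median 2.62), of which 7 were called without the culture pair. Rsad2, the antiviral enzyme viperin, rose by 6.72 ± 0.09 and its neighbour Cmpk2 by 5.51 ± 0.09, and of 21 listed restriction factors 15 were measured in vehicle and 13 of these rose (median 1.38).

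Sensors of viral nucleic acid and their adaptors rose in 9 of 13 genes measured in vehicle (22 listed; median 0.83). Ddx60 (5.41 ± 0.32), Ifih1, which encodes MDA5 (4.74 ± 0.12), and Ddx58, which encodes RIG-I (4.17 ± 0.08), led those with a mean of at least 20 counts. Ifi204, a sensor of DNA, had 0 counts in the 4 vehicle libraries and 117 with IFN-β and rose at least 47-fold, taking 3 counts in the whole vehicle group as the limit. The adaptors Mavs (-0.16) and Ticam1 (0.11) were not called.

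Of 26 listed genes of MHC class I antigen presentation 21 were measured in vehicle, and these 21 rose, with a median log2 fold change of 1.21. Over the 24 genes tested, 15 rises were called without the culture pair in the model. The immunoproteasome subunits Psmb8 (4.52 ± 0.14) and Psmb9 (3.52 ± 0.15) and the class I transactivator Nlrc5 (4.44 ± 0.23) rose most, but Psmb8 and Nlrc5 were not measured in vehicle. The classical heavy chains were less changed, with 0.68 for H2-D1 and 0.21 for H2-K1. Reads of the closely related H2 genes may have been divided between them. In contrast to Psmb8 and Psmb9, only 3 of 32 subunits of the constitutive proteasome rose (Psmc6 0.16, Psmd7 0.15, Psma3 0.14) and none fell, with a median of 0.04. Of the genes called, 527 overlapped an exon on the other strand and 135 one on the same strand, among them Hes5, Irf1, Usp18, Psmb8, Cish, Phlda1, Nefm and Nefl, and the strand setting of the counting is not given in the sources used here.

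Cxcl10, a chemokine that attracts T cells, gained more footprints than any other gene. It had 15.5, 17.7, 21.8 and 17.5 CPM in vehicle and 1471, 3074, 2446 and 1669.8 CPM with IFN-β (log2 6.86 ± 0.08, edgeR adjusted p = 7.92e-29). The next largest gains were those of Gbp2, Vim, Ifit1, Rsad2 and Ifit3. The monocyte chemokines Ccl7 (3.8 ± 0.28) and Ccl2 (2.7 ± 0.16) also rose, as did Tnfsf10 (TRAIL) and Csf1 (1.9). Ccl7, Ccl2 and Tnfsf10 were not measured in vehicle. Of 22 listed chemokine and cytokine genes 3 were measured in vehicle and 2 of these rose. Of 24 listed cell death genes 17 were measured in vehicle, of which 9 rose and none fell (median 0.32). Xaf1 (5.63 ± 0.18), Mlkl, which carries out necroptosis (2.8 ± 0.27), and Casp12 (1.92 ± 0.21) also rose but were not measured in vehicle. NF-κB factors and inhibitors rose in 8 of 15 genes measured in vehicle (median 0.29), with changes such as 0.58 ± 0.06 for Rela and 1.56 ± 0.13 for Tnip2. In all 16 tested, 4 rises were called without the culture pair in the model. Bcl3 rose more, with 3 counts in all vehicle libraries and 144 with IFN-β (57.9-fold, exact 95% counting interval 19.4 to 284). In the ISG15 pathway 5 of 6 genes measured in vehicle rose (median 2.88).

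**Figure D3:**
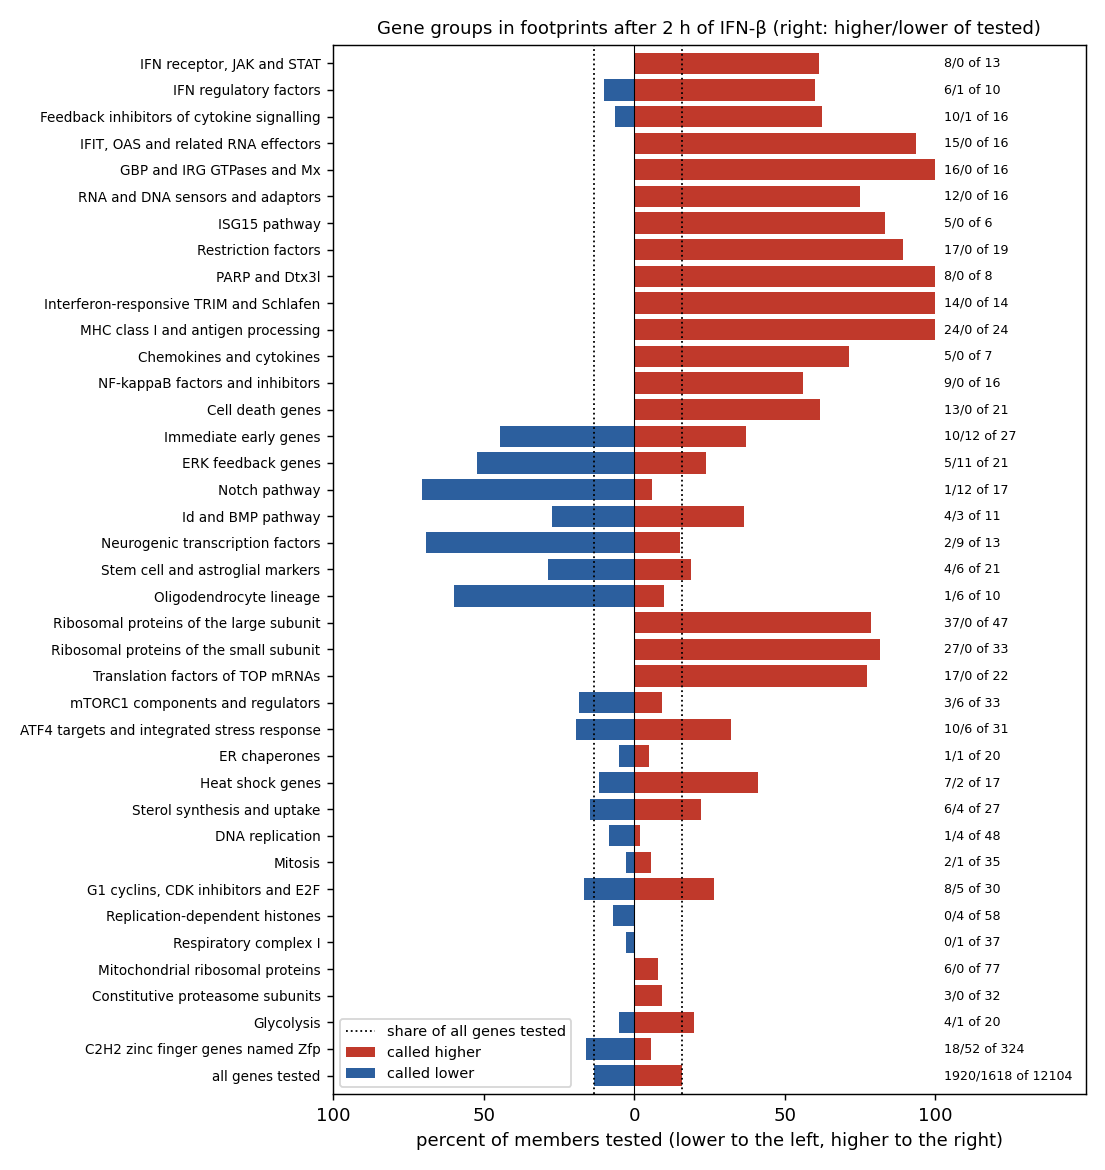
Percent of the tested members, including those that entered through the IFN-β libraries alone, of each gene group called lower (blue, left) and higher (red, right) after 2 h, with the numbers higher and lower of those tested at the right edge and dotted lines at the shares over all genes (13.4% lower, 15.9% higher). The bars of the ISG groups run to the right, those of the Notch, neurogenic and oligodendrocyte groups to the left, and the DNA replication, mitosis and mitochondrial groups have short bars.

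Several of the most strongly rising genes hold an ISRE core in their promoter, searched here on both strands as GAAA, any 2 bases and GAAA again. The windows of 30 bases shown here are examples from named ISGs with this motif before their start site. They are read on the strand of the gene, with the first match in capitals. The list is not complete: Ifit1bl1 also held the motif, and other named ISGs without a window here may hold it too. The sequences are from RefSeq (GRCm38.p6).
Tgtp1: tccaggaatcGAAACTGAAAcctacctgac
Tgtp2: tccaggaatcGAAACCGAAAcctactctga
Ifit1: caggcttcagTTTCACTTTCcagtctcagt
Ifit3: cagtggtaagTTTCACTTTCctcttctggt
Ifit3b: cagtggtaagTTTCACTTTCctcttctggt
Isg15: tatgccgtagGAAAAGGAAAccgaaacaga
Cxcl10: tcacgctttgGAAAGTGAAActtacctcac
Rsad2: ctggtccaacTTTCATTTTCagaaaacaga
Gbp2: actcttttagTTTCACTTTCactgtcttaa
The windows lie at chr11:48992304-48992333 (minus strand) for Tgtp1, chr11:49064263-49064292 (minus) for Tgtp2, chr19:34640775-34640804 (plus) for Ifit1, chr19:34583363-34583392 (plus) for Ifit3 and chr19:34607759-34607788 (plus) for Ifit3b. Those of Isg15, Cxcl10, Rsad2 and Gbp2 lie at chr4:156200877-156200906 (minus), chr5:92349083-92349112 (minus), chr12:26456553-26456582 (minus) and chr3:142620594-142620623 (plus). Ifit3 and Ifit3b had the same 30 bases. The motif was held by 3.44% of all 32851 RefSeq promoters of this length, from 250 bases before to 50 after the start. A comparison of its share between genes that rose and other genes is void, because only 73.9% of the 402 genes that rose by at least 1 had an entry in this table, under the 80% required.

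Some strongly rising genes were neighbours in the genome. Of the genes that rose by at least 1 on the log2 scale and had a position, 53 (13.5%) lay in 9 clusters of at least 4 such genes with gaps of at most 500 kb. The same share was not computed for other genes, so whether it is high cannot be said. Members of the clusters were not limited to genes measured in vehicle, and those that entered through the IFN-β libraries had to be higher. The largest cluster held 9 Serpina3 genes (chr12:104112724-104414329), whose close sequences make the division of reads uncertain. They were all of the tested genes in its span, but Serpina3a had 3 counts and Serpina3m 1 count in all vehicle libraries together. Clusters of 7 genes each held Irgm1, Tgtp1, Tgtp2 and Ifi47 (chr11:48861968-49096974), the Ifit genes (chr19:34290666-34650009) and Trim genes such as Trim30a (chr7:104244457-104507849). Elsewhere the class I processing genes Psmb9, Tap1, Psmb8 and Tap2 lay within a cluster of 5 (chr17:33909414-34216321), where 19 genes were tested.

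The falls included transcription factors of progenitors. Hes5, a target of Notch that keeps progenitors undifferentiated, had 5.45, 32.6, 4.34 and 10.6 CPM in vehicle and 0.749, 6.48, 1.53 and 1.97 CPM with IFN-β. The groups overlapped because culture 3 was high in both, but each pair fell, and the log2 fold change was -2.29 ± 0.19 (edgeR adjusted p = 1.94e-10, against 0.136 without the culture pair). Mycl, a member of the Myc family, fell by 2.16 on the log2 scale, from 9.95, 25.5, 16.6 and 14 CPM to 1.62, 5.67, 4.6 and 2.96 CPM. The other falls among the 12 largest in well-covered genes were those of Nr5a2 (-1.9), Gsx1 (-1.7), Klf15 (-1.69), G0s2 (-1.68), Ackr3 (-1.67), Insm1 (-1.61), Lmo3 (-1.47), Bahcc1 (-1.46), Sox8 (-1.44) and Sybu (-1.44), with standard errors of 0.06 to 0.18.

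Of 21 listed genes of the Notch pathway 17 passed the filter, 12 fell and 1 rose, with a median log2 fold change of -0.47. The ligand Dll1 (-1.05 ± 0.06), the feedback inhibitor Nrarp (-1.08 ± 0.19), the targets Hes1 (-0.54) and Hey2 (-1.18), and Lfng (-1), which modifies the receptor, were among the falls. The exception was the receptor Notch1 (0.16), and its relative Notch2 fell (-0.47). The median over the 17 genes was -0.31, -0.63, -0.51 and -0.36 in culture pairs 2, 3, 5 and 6, so all pairs shared the direction. Without the culture pair in the model 3 of the 12 falls were called.

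The list of neurogenic transcription factors fell in 9 of 13 genes that passed the filter (27 listed; median -0.61), and 2 of the 9 were called without the culture pair. Gsx1 (-1.7 ± 0.11) and Insm1 (-1.61 ± 0.15) were among them, although pair 3 differed for Insm1, with a log2 ratio of -0.48 against -1.57 to -2.06 in the others. The rises were Sox11 (1) and Btg1 (1.24 ± 0.07), which is an inhibitor of proliferation rather than a neurogenic transcription factor.

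Factors of the oligodendrocyte lineage fell. Olig2 had 703, 612, 748 and 806 CPM in vehicle and 372, 323, 384 and 375 CPM with IFN-β. All IFN-β libraries were below all vehicle libraries, and the fold change was 0.508 (log2 -0.98 ± 0.04, edgeR adjusted p = 1.8e-16, and 0.000387 without the culture pair). Nkx2-2 fell by 1.01 and Olig1 by 0.55 on the log2 scale, and 6 of 10 genes of the lineage that passed (16 listed) fell, with 1 rise, and 3 of these falls were called without the culture pair. Mature oligodendrocyte markers were low in both groups, with summed levels of 6.94 to 34.2 CPM in vehicle and 8.81 to 31.7 CPM with IFN-β.

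Stem cell and astroglial genes did not move as a group, with 4 rises, 6 falls and 11 not called of 21 (22 listed; median -0.08). Sox2, a factor of NSC maintenance, had 257, 492, 308 and 323 CPM in vehicle and 264, 412, 302 and 346 CPM with IFN-β (log2 -0.04 ± 0.05, edgeR adjusted p = 0.63), and its sign turned without pair 3. Nes (0.07) and Fabp7 (-0.03) were not called, Sox1 (-0.92 ± 0.1) and Nr2e1 (-0.86 ± 0.11) fell, and Vim rose by 0.32 ± 0.04. Gfap, the astroglial filament, rose from 3.46, 114, 4.87 and 0.679 CPM to 45.7, 465, 75.2 and 57 CPM (log2 2.82 ± 0.21, edgeR adjusted p = 2.14e-11, against 0.432 without the culture pair). Pair 3 had by far the highest level in both groups, and the log2 ratios were 3.54, 2.03, 3.82 and 5.61. Of the markers of other cells, the neurofilament genes Nefm (1.49 ± 0.1) and Nefl (1.37 ± 0.19) and the endothelial receptor Kdr (1.36 ± 0.13) rose, while the summed neuronal markers were 139 to 158 CPM in vehicle and 146 to 212 CPM with IFN-β. The part of other cell types in the changes was not tested.

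Genes of growth factor signalling were split. Egfr, the receptor for the EGF in the medium, fell from 1005, 2104, 1366 and 1384 CPM to 768, 1329, 952 and 914 CPM (log2 -0.54 ± 0.04, edgeR adjusted p = 2.87e-11, against 0.254 without the culture pair). Fgfr2 (-1.13 ± 0.08) and the ERK phosphatase Dusp6 (-0.93) fell as well, and of 21 receptors and feedback genes of ERK signalling 11 fell and 5 rose (median -0.15). Without the culture pair 1 fall and 3 rises of this list were called. Dusp5 (1.48 ± 0.09) and Phlda1 (1.21 ± 0.08) were the largest rises.

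Immediate early genes separated into opposite directions, with 10 rises and 12 falls among the 27 that passed the filter and a median of 0.02. Without the culture pair 9 rises and 3 falls were called. Atf3 (2.56 ± 0.16), Zfp36, whose protein destabilises mRNAs (2.47 ± 0.14), Fosl2 (1.76), Klf4 (1.59) and Junb (0.82) rose. Nr4a1 fell by 2.47 on the log2 scale, from 5.76, 19.1, 7.76 and 12 CPM to 1.37, 1.22, 1.81 and 2.96 CPM (edgeR adjusted p = 1.59e-09). Arc (-1.23), Egr1 (-1), Egr2 (-1.06), Egr3 (-0.99) and Egr4 (-1.43) also fell, while Fos (0.02) and Myc (0.04) were not called.

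Regulators of growth and metabolism changed singly. Of 33 components and regulators of mTORC1, the kinase complex that couples nutrients to translation, 6 fell, 3 rose and 24 were not called (median -0.02), and without the culture pair 1 fall and no rise was called. For comparison, 15.9% of all genes tested rose and 13.4% fell. Mtor itself had a log2 fold change of -0.03 ± 0.05. The falls included the inhibitors Sesn1 (-1.23 ± 0.07), Ddit4 (-0.67 ± 0.07) and Sesn3 (-0.52 ± 0.06). Sesn1 had 59.5, 155, 70.9 and 63.9 CPM in vehicle and 23.7, 60, 32 and 30.9 CPM with IFN-β, with overlap through the high levels of pair 3 and an edgeR adjusted p of 5.31e-14. Hk2, the first enzyme of glycolysis, rose from 11.8, 4.59, 12.2 and 12.4 CPM to 56.7, 32, 58 and 69.7 CPM (log2 2.39 ± 0.09, edgeR adjusted p = 2.45e-17). Pfkp (0.88) and Pfkfb3 (0.87) rose too, but 15 of the 20 glycolytic genes that passed the filter were not called. Atf4, the effector of the integrated stress response, rose by 0.82 ± 0.07 (edgeR adjusted p = 3.15e-10, against 0.109 without the culture pair). Of 31 of its targets and partners 10 rose and 6 fell, and 2 rises and 1 fall of this list were called without the culture pair. Of 11 Id and BMP genes that passed the filter 4 rose and 3 fell (median 0.05), and 3 rises and 1 fall were called without the culture pair. The BMP effector Smad1 rose by 1.07 ± 0.05 and the inhibitor of differentiation Id4 fell by 1.07 on the log2 scale. Klf15, G0s2 and Apoe fell, and Apoe illustrated the spread between cultures, with 513, 4684, 1167 and 881 CPM in vehicle and 483, 3523, 953 and 666 CPM with IFN-β.

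Footprints of TOP-mRNAs, which begin with a pyrimidine tract and encode ribosomal proteins and translation factors, showed small rises in most members. Ribosomal proteins of the large subunit summed to 9096, 4661, 8747 and 9036 CPM in vehicle cultures 2, 3, 5 and 6 and to 11086, 5949.5, 10238 and 10709 CPM with IFN-β. Those of the small subunit summed to 6415, 3343, 6275 and 6304 CPM in vehicle and to 7869, 4266, 7276 and 7553 CPM with IFN-β. Within every pair the IFN-β culture was higher, but culture 3 lay far below the others in both groups, so that the groups overlapped. Of the 47 and 33 genes of these lists that passed the filter, 37 and 27 rose and none fell, with medians of 0.26 and 0.29 on the log2 scale. Of 22 TOP translation factors 17 rose and none fell (median 0.2). Eef1a1, the elongation factor that delivers tRNAs, had 1312, 706, 1344 and 1337 CPM in vehicle and 1645, 966, 1554 and 1643 CPM with IFN-β (log2 0.32 ± 0.04, edgeR adjusted p = 2.42e-07), and Pabpc1, the poly(A)-binding protein, rose most (0.63 ± 0.07). None of the 3 lists had a called gene without the culture pair, whereas scaling by total counts alone left 35, 25 and 14 rises. Ribosomal protein genes have many processed pseudogenes, and how reads shared with these were counted is not given in the sources used here.

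**Figure D4:**
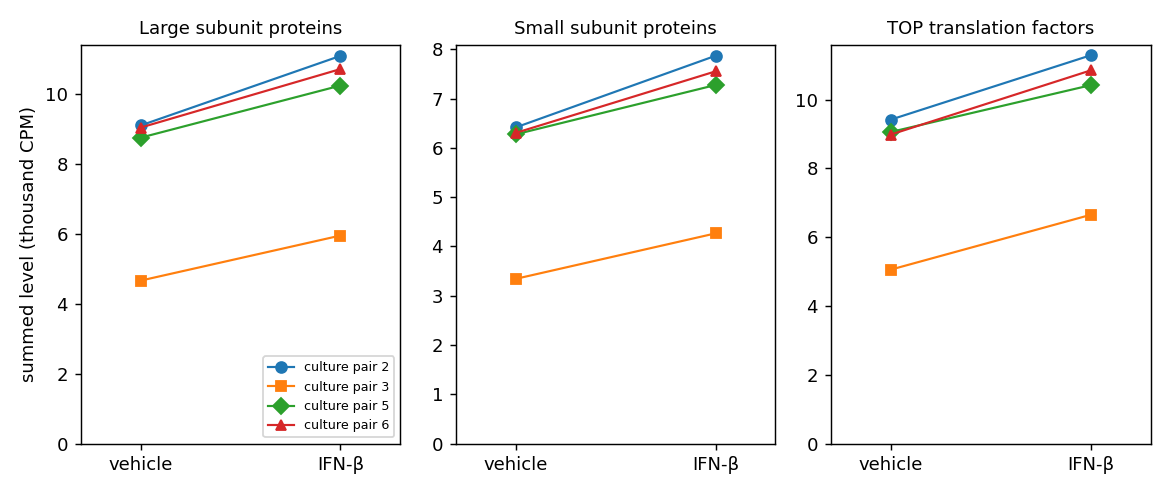
Summed footprint level (CPM in units of 1000, y axis) of the ribosomal proteins of the large and small subunit and of TOP translation factors in each vehicle culture and in the IFN-β culture of the same number, joined by a line. All 4 lines rise in each panel, and the line of culture pair 3 lies well below the others.

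The cell cycle and housekeeping groups were close to the median of all genes after 2 h. Of all genes tested, 15.9% rose and 13.4% fell. Of 48 DNA replication genes 1 rose and 4 fell (median -0.05), of 35 mitotic genes 2 rose and 1 fell (median -0.02), and of 58 replication-dependent histone genes none rose and 4 fell (median -0.02). These counts moved with the processing: with total counts alone 12, 5 and 10 genes of the 3 lists fell and none rose, and leaving out 1 culture pair gave 1 to 7, 1 and 1 to 9 falls. The calls among the replication genes lay between -0.47 (Orc1) and 0.13 (Mcm4), with -0.32 ± 0.07 for Tk1, the thymidine kinase. The G1 regulators had 8 rises and 5 falls of 30, among them Cdkn2d (0.68 ± 0.07), an inhibitor of CDK4 and CDK6, and E2f8 (-0.74 ± 0.09), and Ccnd1 rose by 0.23 ± 0.04. Without the culture pair 2 rises and no fall of this list were called, and Ccnd1 was not called (edgeR adjusted p = 0.821). Respiratory complex I (1 fall of 37), mitochondrial ribosomal proteins (6 rises of 77) and endoplasmic reticulum chaperones (1 rise and 1 fall of 20) held few calls. Heat shock genes had 7 rises and 2 falls of 17 (median 0.13). Genes of sterol synthesis and uptake had 6 rises and 4 falls of 27 (median 0), near the shares over all genes. Without the culture pair 3 rises of the heat shock list and 1 fall of the sterol list were called. Mrps6 stood out with a log2 fold change of 0.86 ± 0.05. Zinc finger genes named Zfp had 18 rises and 52 falls of 324 (median -0.14), with a share of falls near that over all genes. Their falls were 16 in number with DESeq2 and 7 without the culture pair.

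The 14 h footprint libraries, from cultures of the same kind numbered 1 to 4 (4 vehicle, 5366290 to 10505108 counts, and 4 IFN-β, 2956297 to 9401846), gave the same contrast at the later time. The numbers 2 and 3 occur at both times, the labels do not say whether they mark the same source, and the pairing was fitted within each time. In a fit of all 16 libraries, 2677 of the 3538 genes called at 2 h had a change at 14 h that differed from that at 2 h (edgeR, adjusted p under 0.05), where 55.5% of all 12508 genes tested did so. Of the 1920 rises, 776 were also higher at 14 h and 592 were lower, against 30.8% and 29.0% of all genes. Of the 402 rises of at least 1, 258 were higher and 23 lower at 14 h. Of the 115 falls of -1 or below, 50 were higher and 15 lower at 14 h, and in 107 the change was significantly more positive at 14 h, against 28.0% of all genes. These genes were chosen by their 2 h values, which enter the difference.

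ISG levels with IFN-β differed between the times in either direction. Cxcl10 was at 2165 ± 738 CPM after 2 h and 471 ± 120.4 CPM after 14 h of IFN-β (SD, n = 4 cultures each), whereas Isg15 was at 315 ± 71.4 and 1329.6 ± 93.5 CPM and Stat2 at 211 ± 40.8 and 272 ± 10.6 CPM. Exposure and set of cultures cannot be told apart in such levels, and the levels at 14 h were scaled by total counts alone, unlike those at 2 h. The vehicle level of Cxcl10 was 18.1 CPM at 2 h and 0.699 CPM at 14 h, so that its change against vehicle was larger at 14 h (log2 9.4 against 6.86). The difference of the changes, 14 h minus 2 h, was 0.62 for Stat2 and -0.8 for Irf1 on the log2 scale, so the change of Irf1 was smaller at 14 h. Ccl2 was 2.7 at 2 h and -0.11 at 14 h, Atf3 2.56 and 0.64, and Hk2 2.39 and -0.68, each with a difference that passed the test. All 24 MHC class I genes had a larger change at 14 h (median 1.3 and 5.04). Of the falls, Hes5 was at -2.29 and 0.33, Olig2 at -0.98 and 0.12, and Egfr at -0.54 and 0.1.

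The ribosomal proteins turned from the small rise at 2 h to lower levels at 14 h, where 44 of 47 genes of the large and all 33 of the small subunit were lower (medians -0.45 and -0.53). The difference was significant in 46 and 32 genes. DNA replication genes, with a median of -0.05 at 2 h, had a median of -1.52 at 14 h, and 46 of 48 were lower. In the Notch pathway 14 of 17 genes had a more positive change at 14 h (median -0.47 and 0.07).

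**Figure D5:**
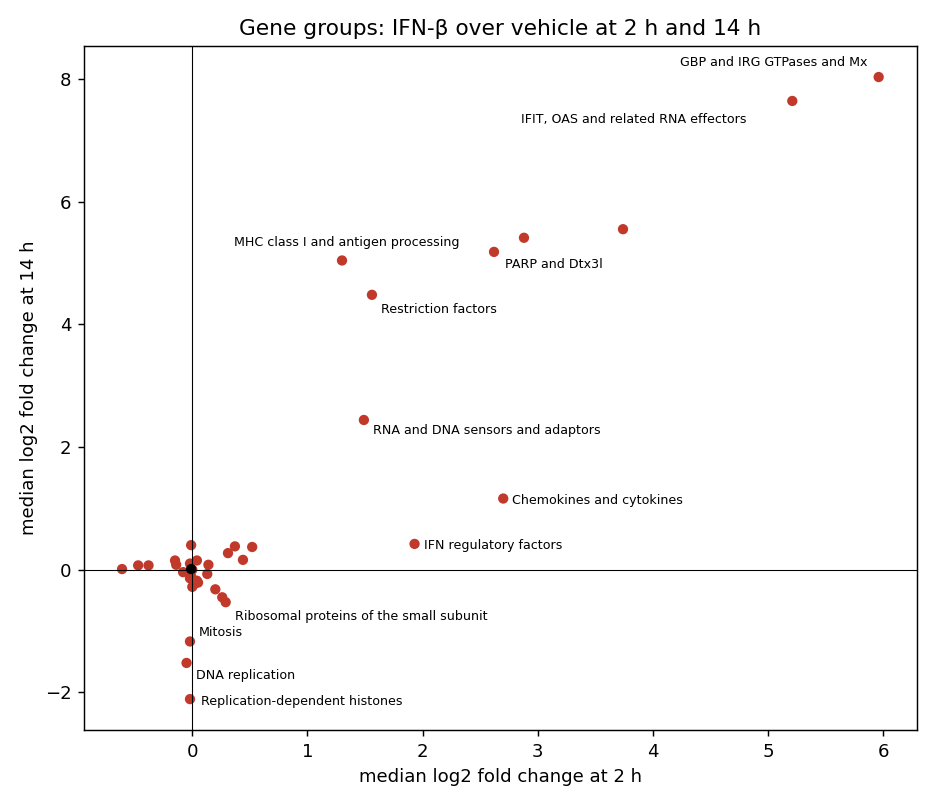
Median log2 fold change of footprints (IFN-β over vehicle) of each gene group at 2 h (x axis) and 14 h (y axis), with all genes tested in black. Antiviral groups lie at the upper right, DNA replication, mitosis and histone genes lie near 0 at 2 h and below -1 at 14 h, and chemokines lie further right than up.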

How the data were processed

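The authors treated NSC cultures, lysed them with cycloheximide, digested with RNase I and sequenced the protected fragments. Per the labels and the study's methods, reads were trimmed (Trim Galore 0.4.4), aligned to mm10 transcripts (Bowtie 0.12.7), stripped of duplicates and counted over the CDS; the deposited values are these raw counts per gene. The strand setting is not given in the sources used here.

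Genes that reached 10 counts in 4 or more of the 8 libraries were fitted with edgeR 4.0.16 (R 4.3.3), TMM scaling and the culture number as a block; adjusted p (Benjamini-Hochberg) under 0.05 was a call. The standard error was taken from the quasi-likelihood F. Same-numbered cultures correlated in their deviations (0.328 to 0.812, against at most 0.324 for different numbers), and so were paired. The labels do not say that a number marks one animal, and p-values cover the spread between these cultures. CPM of genes and gene lists at 2 h are counts scaled to a common TMM-adjusted library size (factors of 0.981 to 1.02), and pair ratios added 0.5 CPM. Levels at 14 h, summed marker levels and the vehicle percentages of single genes were scaled by total counts alone. The time difference was fitted over 16 footprint libraries. Counting intervals cover counting error only.

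Named genes were the 12 largest changes in each direction (mean of at least 50 counts, all pairs alike), the 6 largest gains and losses of CPM, up to 3 examples per list (mean of at least 20 counts) and a fixed set of pathway genes. Other list members were named after their values were seen. Members and lists were chosen with earlier results of these data known. Alternatives were DESeq2 1.42.0, limma 3.58.1 (voom), other scalings and filters, no block and leaving out each pair. The fit was tested on simulated data. Total RNA counts, low for abundant genes (24 to 125 for Eef1a1), were not used. Results for a few genes are not reported here. Gene positions are from GENCODE (GRCm38) and promoters from RefSeq (GRCm38.p6).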

Additional observations from a re-analysis of the deposited data

Results flagged for a closer look

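In 14 of the 147 named genes 1 culture pair lay apart from the other 3 by Dixon's test of the log2 ratios, which chance gives in about 1 of 20 groups. In culture pair 3 these were Trim21 (3.98), Nr4a1 (-3.51), Rps2 (0.78), Mrps6 (1.11) and Kdr (0.96). In pair 5 they were Hes5 (-1.25), Rps12 (0.13), Abcg1 (-1.35), Orc1 (-0.68) and Tk1 (-0.14). In pair 6 they were Gm4951 (5.39), Adgrg1 (-0.73) and Parp14 (5.12), and in pair 2 it was Ckb (-0.01).

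The change at 14 h differed from that at 2 h in 2677 of the genes called at 2 h (edgeR, adjusted over all genes). On the log2 scale, as 14 h minus 2 h, the difference was 4.82 for Iigp1, 4.66 for Usp18, 4.49 for Isg15, 4.25 for Ifi47, 3.21 for Irf7, 2.54 for Cxcl10, 1.28 for Irf9 and 0.62 for Stat2. It was also positive for the falls Hes5 (2.62), Mycl (2.03) and Nr5a2 (1.0), and for Tyk2 (0.91) and Mtor (0.34). It was negative for Irf1 (-0.8), Atf4 (-0.74), Eef1a1 (-0.65), Jak1 (-0.55) and Ccnd1 (-0.44). For the ISGs these differences rest also on the low vehicle counts, which were higher at 2 h: for Cxcl10 the vehicle level was 18.1 CPM at 2 h and 0.699 CPM at 14 h, while the IFN-β level was 2165 and 471 CPM. Whether the 2 h vehicle counts came from the vehicle cultures was not tested.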

How the results depend on the processing

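Without the replicate block 878 genes were called at 2 h, 635 higher and 243 lower, and DESeq2 called 2067, 1278 higher and 789 lower; all of these were among the 3538. limma-voom called 3529 genes, RLE scaling 3545, total counts alone 3896, no filter on low counts 3796 and a mean of at least 50 counts 3132. Leaving out 1 culture pair gave 2717 to 3168 calls, with 1506 to 1737 higher and 1211 to 1431 lower. The number of 2 h calls with a different change at 14 h was 1691 without the replicate block and 2570 to 2600 without 1 pair, against 2677. Among the named genes, 63 of 147 were no longer called without the block, 22 with DESeq2 and 6 with total counts alone. Of the named genes with a value when 1 pair was left out, 5 to 17 were no longer called. Only 133 to 135 of the named genes had such a value, because the filter of 4 libraries cannot then be met by the IFN-β libraries alone. For the same reason the rises without 1 pair were 7 of 14 for the TRIM and Schlafen genes, 11 to 12 of 16 for the GTPases, 10 of 15 for the IFIT and OAS genes, 3 of 5 for the chemokines and 3 to 4 of 6 for the IFN regulatory factors. Sign changes occurred in 3 genes that were not called: leaving out 1 pair gave -0.13 to 0.01 for Tyk2, -0.08 to 0.04 for Sox2 and -0.06 to 0.01 for Mtor. Depth limits genes with few vehicle counts, for which the size of the rise is known only within wide counting intervals. The cause of these shifts was not tested.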
